A study of Mus musculus with 36 samples.

Results

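miR-143 and miR-145 are a pair of microRNAs (miRNAs) cut from neighbouring hairpins and known as the leading miRNAs of smooth muscle. They were followed here in the prostates of mice with changes in Elac2, the gene of the ribonuclease that trims the 3′ end of precursor transfer RNAs. The 4 mature miRNAs are mmu-miR-143-3p, mmu-miR-143-5p, mmu-miR-145a-5p and mmu-miR-145a-3p (written below without the species prefix), which were taken by name from the 1963 miRNAs listed in the tables of the series. All 4 were read in every library and were among the 514 miRNAs with a mean of at least 1 RPM, the reads of a miRNA per 1000000 miRNA reads of its library. The hairpin of miR-145a lies at chr18:61647825-61647894 and that of miR-143 at chr18:61649196-61649258 of GRCm38, both on the minus strand, with 1301 bases between them. RefSeq places both within the long noncoding RNA gene Carmn at chr18:61645878-61665538, whereas the GENCODE model of Carmn, at chr18:61649625-61665537, ends before them and leaves both hairpins outside it. None of the 4 names stands for a merged entry.

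Small RNA of the ventral and lateral prostate lobes of male mice was sequenced. WT mice served as controls. KO mice had lost exon 8 of Elac2 through a Cre recombinase driven by a probasin promoter, which acts in prostate epithelium and not by design in smooth muscle, and A537T mice carried a homozygous missense change in the whole body. Each of these lines was studied without and with the heterozygous TRAMP transgene, in which a probasin promoter drives the SV40 T antigens in prostate epithelium, and these groups are called by the line with the suffix -TRAMP. At sampling mice were 10 or 30 weeks old, and all were given as of the strain C56NL/6N. This made 12 groups of 3 libraries, 36 in all. The columns of the tables do not name a group, so the group of each library was read from which tables hold it, and libraries are called by the number in their column name. Libraries 1 to 18 are the TRAMP ones and 19 to 36 the others, so the TRAMP background and the block of library numbers cannot be told apart. Each group also holds 3 numbers in a row, so line and age are tied to library number as well. Nothing stated that the 3 libraries of a group came from separate litters or cages, and p-values measure the spread between these libraries.

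Both hairpins are transcribed together, and the transcript is activated by serum response factor with myocardin, the same pair that switches on contractile genes. The mature miRNAs help to keep smooth muscle cells in their contractile state. In the prostate, smooth muscle lies in the stroma around the glands and in the walls of vessels. A hairpin yields one product from each arm, and the more abundant arm is 3p for miR-143 and 5p for miR-145a. No messenger RNA of smooth muscle is in these files, so the cell of origin of the 4 miRNAs was not checked. In whole lobes, fewer smooth muscle cells and less of a miRNA per cell cannot be told apart. Epithelial miRNAs, which the lobes should hold, were present throughout, with miR-200b-3p at 14902 to 47433 RPM.

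Library 35 (A537T, 10 weeks) held 655455 miRNA reads and the others 4544257 to 21870210. The least-read of the 4 miRNAs still had 646 reads in that library, so counting error was small beside the spread between libraries. RPM is a share of all miRNA reads, and miRNAs of skeletal muscle took an uneven share of them. The list of 7 such miRNAs, led by miR-1a-3p and miR-133a-3p, took 0.736% to 30.7% of reads in the 9 libraries of 10 weeks without TRAMP. It took 0.218% to 3.09% in the 9 TRAMP libraries of that age and 0.187% to 0.937% in the 18 libraries of 30 weeks. Libraries 29 and 30 (WT) and 34 (A537T) exceeded 10%, with 13.7% to 30.7%, and results at 10 weeks are also given without these 3.

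miR-143-3p was among the most abundant miRNAs of the prostate. It averaged 182650 RPM over the 36 libraries, ranged from 53618 to 372576, and ranked between first and 3rd in every library. The 4 miRNAs together took 5.59% (library 16, KO-TRAMP, 30 weeks) to 39.4% (library 36, A537T, 10 weeks) of all reads. At 10 weeks without TRAMP, miR-143-3p stood at 279369, 141402 and 63374 RPM in the WT libraries, at 333948, 279904 and 327612 in KO, and at 164447, 256462 and 372576 in A537T. The 3 KO libraries were close to each other and all above the highest WT library, but only just, and the WT libraries spread more than 4-fold. The skeletal muscle list took 9.73% of reads in the highest of these WT libraries and 30.7% in the lowest, and 3.72% in the highest A537T library and 13.7% in the lowest. Within both groups the library with the most skeletal muscle reads had the least miR-143-3p, and whether the one accounts for the other was not tested. At 10 weeks with TRAMP it stood at 100562, 82642 and 102656 RPM in WT-TRAMP, at 69928, 156997 and 129911 in KO-TRAMP, and at 72888, 214225 and 167736 in A537T-TRAMP. The KO-TRAMP libraries lay below every KO library, while the WT-TRAMP and A537T-TRAMP libraries overlapped their partners without the transgene.

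At 30 weeks without TRAMP the values of miR-143-3p were 123301, 223286 and 191301 RPM in WT, 278714, 118143 and 256047 in KO, and 251509, 153125 and 251627 in A537T. With TRAMP they were 187228, 88563 and 128745 RPM in WT-TRAMP, 53618, 330631 and 233706 in KO-TRAMP, and 179312, 81034 and 128863 in A537T-TRAMP. TRAMP and other libraries overlapped in every line at this age. KO-TRAMP was the most scattered group, holding both the lowest library of all 36 (library 16) and one of the highest (library 17). By group means, miR-143-3p was highest in KO at 10 weeks (313822 ± 29544 RPM, SD, n = 3) and lowest in WT-TRAMP at 10 weeks (95286 ± 11001, SD, n = 3). In that order of 12 groups, each of the 11 pairs of neighbours overlapped, and the same was true of the other 3 miRNAs.

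**Figure D1:**
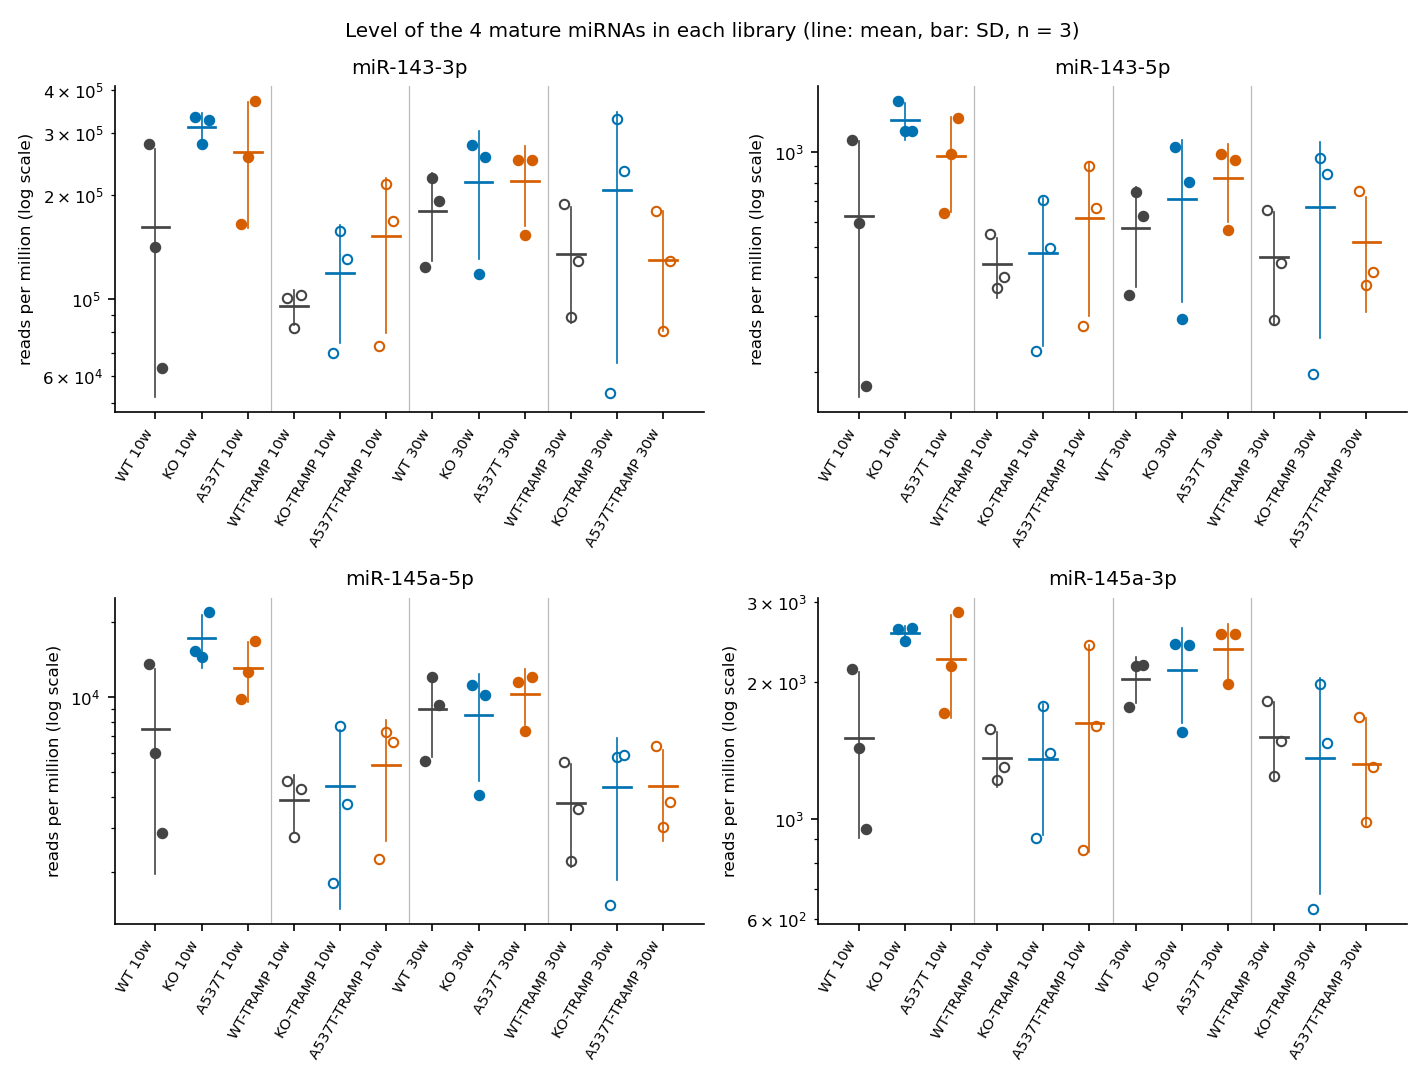
RPM (log axis) of each of the 4 miRNAs in each library, by group. Filled points are libraries without TRAMP and open points libraries with TRAMP, with WT in grey, KO in blue and A537T in orange; the horizontal line is the group mean and the bar its SD (n = 3). The KO group of 10 weeks has the highest mean of each miRNA, with libraries from 279904 to 333948 RPM of miR-143-3p. For miR-145a-5p 7 of 9 TRAMP libraries at each age lie below every library of the same line and age without TRAMP. The like count over all miRNAs is not given.

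miR-145a-5p was the second most abundant of the 4, with a mean of 7648 RPM and a range of 1477 to 21889. At 10 weeks without TRAMP it stood at 13595, 5995 and 2867 RPM in WT, at 15265, 14459 and 21889 in KO, and at 9818, 12660 and 16797 in A537T. With TRAMP at this age it was at 4611, 2749 and 4288 RPM in WT-TRAMP, 1800, 7651 and 3753 in KO-TRAMP, and 2261, 7278 and 6594 in A537T-TRAMP. TRAMP libraries lay below all libraries of the same line without it in KO and A537T, but WT and WT-TRAMP overlapped through library 30 (WT), which held 2867 RPM. At 30 weeks without TRAMP the libraries held 5578, 12028 and 9355 RPM in WT, 11185, 4056 and 10237 in KO, and 11560, 7328 and 12096 in A537T. With TRAMP they held 5509, 2203 and 3559 RPM in WT-TRAMP, 1477, 5773 and 5851 in KO-TRAMP, and 6373, 3013 and 3824 in A537T-TRAMP. WT-TRAMP lay wholly below WT and A537T-TRAMP below A537T, and KO-TRAMP overlapped KO through library 23 (KO), at 4056 RPM. The share of all miRNAs lying lower with TRAMP without overlap is given here only for KO at 10 weeks, at 37.2%. These separations are thus not shown to be particular to miR-145a-5p. KO at 10 weeks was again the highest group (17204 ± 4077 RPM, SD, n = 3), and the lowest was WT-TRAMP at 30 weeks (3757 ± 1662, SD, n = 3).

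The less abundant arms stood at lower levels. miR-145a-3p averaged 1779 RPM, between 633 (library 16) and 2844 (library 36), and its highest group was KO at 10 weeks (2565 ± 90.2 RPM, SD, n = 3). miR-143-5p averaged 679 RPM, between 180 (library 30) and 1456 (library 31), with KO at 10 weeks on top once more (1263 ± 168 RPM, SD, n = 3). For miR-145a-3p 5 of 9 TRAMP libraries at 10 weeks and 7 of 9 at 30 weeks lay below every library of the same line without TRAMP. For miR-143-5p the count was 4 of 9 at each age, as for miR-143-3p. The like counts over all miRNAs are not given.

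The TRAMP groups were set against those without the transgene to see whether these miRNAs differ between them. The block of library numbers differs in the same way, so neither can be told from the other. All 4 miRNAs were lower with TRAMP at 10 weeks in the mean of the 3 lines. At 30 weeks both products of miR-145a were lower, and those of miR-143 did not pass the test. Values were compared by limma on log2(RPM + 1) over all 514 miRNAs and 36 libraries, as a two-sided test. The p-values of a comparison were adjusted over its 514 miRNAs by the Benjamini-Hochberg method, and values under 0.05 passed. All fold changes refer to log2(RPM + 1).

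At 10 weeks miR-145a-5p fell most, by a log2 fold change of -1.43 ± 0.33 (SE, adjusted p = 0.000557), which is 0.370 of the level without TRAMP (95% interval 0.230 to 0.594). miR-143-3p changed by -0.95 ± 0.31 (SE, adjusted p = 0.00925), or 0.517 of the level without TRAMP (0.332 to 0.806). The minor arms changed by -0.82 ± 0.34 for miR-143-5p (SE, adjusted p = 0.0367) and -0.54 ± 0.21 for miR-145a-3p (SE, adjusted p = 0.0237). These 4 of 4 calls stood beside 39.9% of all 514 miRNAs called lower in the same comparison, so a fall at this age was common. The median over all 514 miRNAs was -0.28, and -0.51 to -0.15 under the scalings tried, and the median of the 4 was -0.89. Relative to the median of all miRNAs, miR-145a-5p was lower by -1.18 to -1.10 and miR-143-3p by -0.69 to -0.62 under these scalings, whereas miR-145a-3p was lower by only -0.28 to -0.20. A scaling shifts all miRNAs of a library nearly alike, so these narrow ranges follow from the subtraction and do not test the scaling. The calls of miR-143-3p and miR-145a-5p held in each of 30 alternatives, with adjusted p of 0.00119 to 0.0310 and of 5.00e-05 to 0.00213. Those of the minor arms were less firm. That of miR-143-5p was lost when library 2, 3, 4, 7, 28, 29, 31, 35 or 36 was left out, with values from -0.81 to -0.63. That of miR-145a-3p was lost without library 4, 7, 28 or 36, with values from -0.47 to -0.40. Without the 3 libraries rich in skeletal muscle miRNAs, all 4 remained lower, by -1.40 for miR-143-3p and by -1.88 for miR-145a-5p. Those 3 held the least of each of the 4 miRNAs among the libraries of 10 weeks without TRAMP. Leaving them out could thus only deepen the fall, so it is no test of it.

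At 30 weeks miR-145a-5p was lower by -1.21 ± 0.33 (SE, adjusted p = 0.00411), or 0.433 of the level without TRAMP (0.269 to 0.695). miR-145a-3p was lower by -0.69 ± 0.21 (SE, adjusted p = 0.00745). miR-143-3p stood at -0.52 ± 0.31 (SE, adjusted p = 0.180), an interval of 0.447 to 1.085 in fold, and miR-143-5p at -0.41 ± 0.34 (SE, adjusted p = 0.340), and neither passed. Of all miRNAs 16.3% were called lower here, against 2 of these 4, and the median over all miRNAs was 0.07. Only 13 of the 514 had a more negative change than miR-145a-5p. Counted from the most negative, miR-145a-3p held place 46, miR-143-3p place 73 and miR-143-5p place 104. At 10 weeks the places were 33 for miR-145a-5p, 87 for miR-143-3p, 119 for miR-143-5p and 197 for miR-145a-3p. Both calls of 30 weeks held in each of 29 alternatives. The value of miR-143-3p ranged from -0.70 to -0.26 over its 29 alternatives and passed in 0 of them, and it was nearest to 0 without library 16.

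The TRAMP effect was not shown to change with age. Its difference between 30 and 10 weeks was 0.43 ± 0.44 for miR-143-3p (SE, adjusted p = 0.456) and 0.23 ± 0.47 for miR-145a-5p (SE, adjusted p = 0.729). None of the 4 passed, although 37.2% of all miRNAs did.

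**Figure D2:**
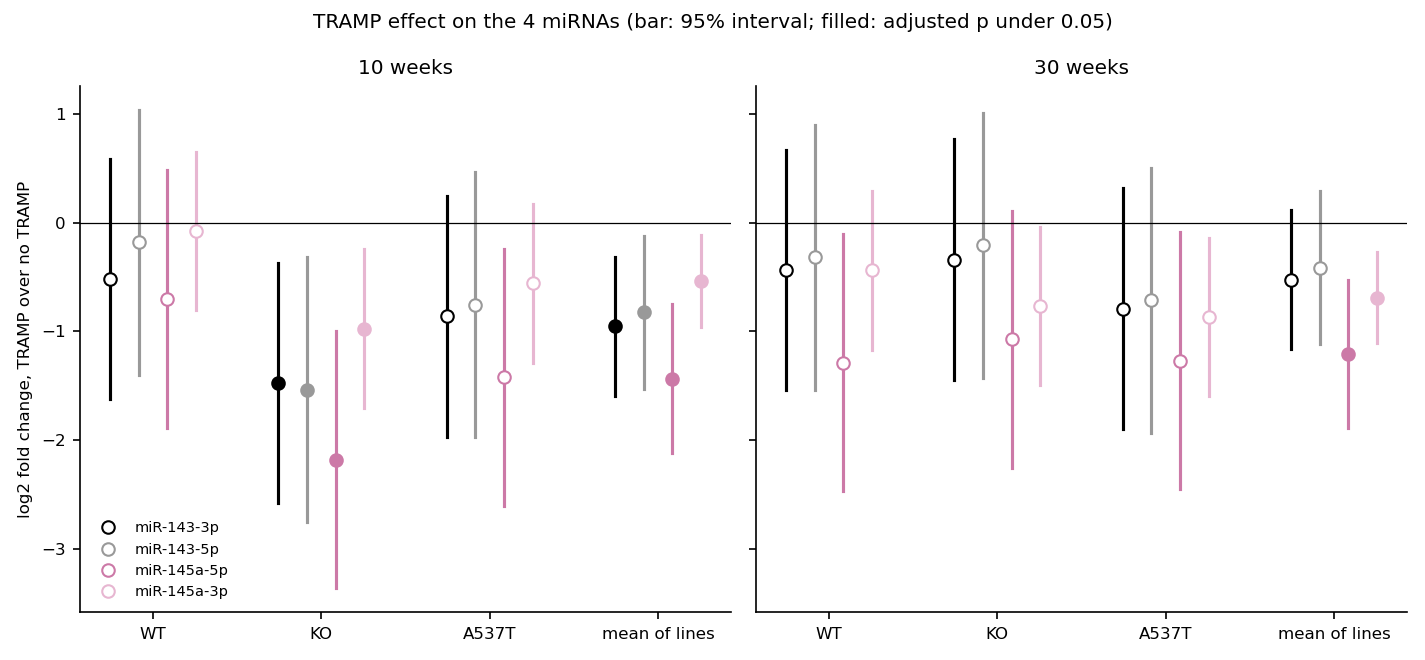
Log2 fold change of TRAMP over no TRAMP for the 4 miRNAs in each line and in the mean of the 3 lines, at 10 weeks (left) and 30 weeks (right), with 95% intervals from limma. Filled points passed an adjusted p of 0.05: all 4 in KO and in the mean of lines at 10 weeks, and both products of miR-145a in the mean of lines at 30 weeks; every point lies below 0.

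Within single lines, all 24 values lay below 0. The 4 miRNAs follow each other between libraries, so these are not 24 separate results. Medians over all miRNAs ran from -0.40 (KO, 10 weeks) to 0.34 (KO, 30 weeks). Of the 24 values 4 passed, those of the 4 miRNAs in KO at 10 weeks. There miR-145a-5p was lower by -2.18 ± 0.58 (SE, adjusted p = 0.00468), or 0.220 of its level in KO (0.0971 to 0.501), and miR-143-3p by -1.47 ± 0.54 (SE, adjusted p = 0.0313). All 3 KO-TRAMP libraries lay below all 3 KO libraries for each of the 4 miRNAs. For KO at 10 weeks 28.4% of all miRNAs were called lower and 37.2% lay lower without overlap. The 4 calls rested on few libraries. None was left without library 7, 1 was left without library 31, 32 or 33, and 2 without library 9. Leaving aside single libraries, miR-145a-5p passed there in 11 of 11 alternatives, miR-143-3p in 8, miR-143-5p in 7 and miR-145a-3p in 6 of 11.

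In the other lines miR-145a-5p was nearer to a call than miR-143-3p. At 10 weeks it stood at -0.70 ± 0.58 in WT (SE, adjusted p = 0.387) and -1.42 ± 0.58 in A537T (SE, adjusted p = 0.0546), where 14.2% and 22.4% of all miRNAs were called lower. At 30 weeks it stood at -1.29 ± 0.58 in WT, -1.07 ± 0.58 in KO and -1.27 ± 0.58 in A537T (SE, adjusted p = 0.0873, 0.143 and 0.178), where the shares called lower were 14.8%, 8.56% and 2.33%. miR-143-3p stood at -0.52 in WT and -0.86 in A537T at 10 weeks, and at -0.43, -0.34 and -0.79 in WT, KO and A537T at 30 weeks (SE 0.54 each, adjusted p from 0.213 to 0.634). Calls outside KO at 10 weeks depended on the method. miR-145a-5p passed in 3 of 12 alternatives in A537T at 10 weeks, and at 30 weeks in 4 of 11 in KO, 2 of 11 in A537T and 1 of 11 in WT. miR-145a-3p passed at 30 weeks in 4 of 11 in KO and 2 of 11 in A537T, while miR-143-3p and miR-143-5p passed in 0 of these. For miR-143-3p in WT at 10 weeks the value came to 0.0027 without library 28, and in KO at 30 weeks to 0.45 without library 16. Its sign there thus depends on 1 library. With 1 library left out, miR-143-5p came as high as 0.40 and 0.52 in the same comparisons. miR-145a-3p came as high as 0.22 in WT at 10 weeks.

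Ratios within a library do not depend on how the library is scaled. They were tested by an exact permutation test, two-sided, exchanging labels within each line over 8000 arrangements, with adjustment over the 12 tests made. miR-145a-5p lost ground to miR-143-3p with TRAMP at both ages, and to miR-145a-3p as well, while the difference in the ratio of the arms of miR-143 did not pass. Both ratios that passed have miR-145a-5p as their first term, so they are not separate results. The ratio of miR-145a-3p to miR-143-3p was not tested. Ratios of other miRNAs were not tested, so these shifts are not shown to be particular to the pair of hairpins.

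At 30 weeks the log2 ratio of miR-145a-5p to miR-143-3p was -5.17 ± 0.32 in the 9 TRAMP libraries and -4.49 ± 0.20 in the other 9 (SD). The difference was -0.69, a ratio 0.621 times as high (exact permutation p = 0.00025, the smallest possible, adjusted p = 0.003). In each of the 3 lines the TRAMP libraries lay below the others without overlap, with differences of -0.85 in WT, -0.73 in KO and -0.48 in A537T. Single libraries show the spread. The ratio was -5.33, -5.18 and -5.09 in WT-TRAMP and -4.47, -4.35 and -4.21 in WT. It was -5.84, -5.32 and -5.18 in KO-TRAMP and -4.86, -4.64 and -4.64 in KO, and library 17 (KO-TRAMP), which had the most miR-143-3p of any TRAMP library, had the lowest ratio of all. At 10 weeks the difference was -0.48 (exact permutation p = 0.00275, adjusted p = 0.011), and it was -0.48 without the 3 libraries rich in skeletal muscle miRNAs. TRAMP and other libraries of WT and of KO overlapped at that age, and those of A537T did not. Among TRAMP libraries the ratio was also lower at 30 than at 10 weeks, by -0.37 (exact permutation p = 0.015, adjusted p = 0.036), with -0.55 in WT-TRAMP, -0.53 in KO-TRAMP and -0.03 in A537T-TRAMP. Without TRAMP the age difference was -0.17 (exact permutation p = 0.117, adjusted p = 0.156).

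The arms of the miR-145a hairpin changed in balance too. miR-145a-5p exceeded miR-145a-3p in every library, by 1.78-fold in library 11 (WT-TRAMP, 30 weeks) up to 8.35-fold in library 33 (KO, 10 weeks). The log2 ratio of 5p to 3p was 1.56 ± 0.37 with TRAMP and 2.46 ± 0.41 without at 10 weeks (SD, n = 9 each), a difference of -0.90 (exact permutation p = 0.0005, adjusted p = 0.003). At 30 weeks it was 1.51 ± 0.36 and 2.03 ± 0.33 (SD, n = 9 each), a difference of -0.52 (exact permutation p = 0.00775, adjusted p = 0.0233). The direction was the same in each line at both ages. Without TRAMP the ratio differed by -0.43 between 30 and 10 weeks (exact permutation p = 0.031, adjusted p = 0.062), or by -0.62 without the 3 libraries rich in skeletal muscle miRNAs (unadjusted exact permutation p = 0.00375). It differed with TRAMP by -0.05 (exact permutation p = 0.76, adjusted p = 0.76).

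miR-143-3p exceeded miR-143-5p by 184-fold to 401-fold. With TRAMP the log2 ratio of 3p to 5p differed by -0.13 at 10 weeks and -0.11 at 30 weeks (exact permutation p = 0.221 and 0.208, adjusted p = 0.241 for both). Its age differences were 0.19 without and 0.20 with TRAMP (exact permutation p = 0.068 and 0.0513, adjusted p = 0.102 and 0.0879). None of the 4 passed after adjustment, and without the 3 libraries rich in skeletal muscle miRNAs the age difference without TRAMP was 0.22 (unadjusted exact permutation p = 0.0488).

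**Figure D3:**
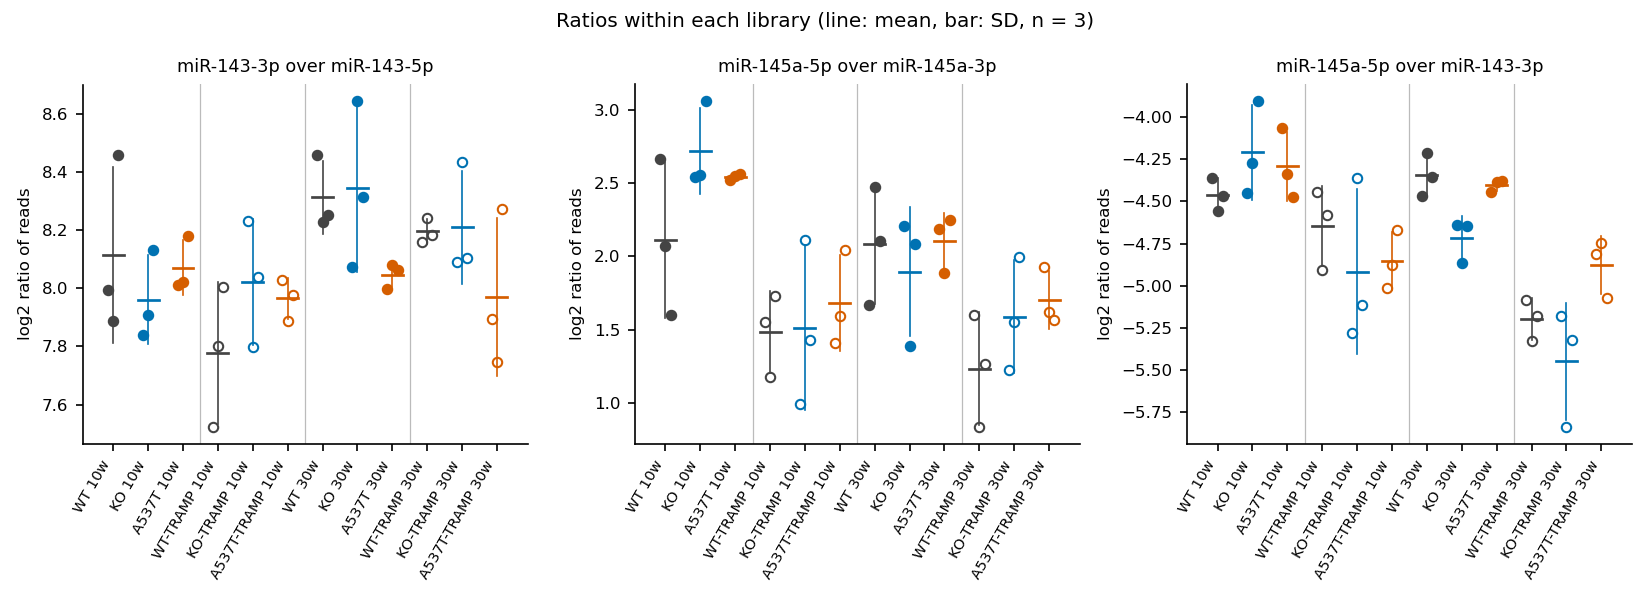
Log2 ratio of reads within each library, by group, for miR-143-3p over miR-143-5p, miR-145a-5p over miR-145a-3p and miR-145a-5p over miR-143-3p. Filled points are libraries without TRAMP and open points libraries with TRAMP; the line is the mean and the bar the SD (n = 3). In the right panel the 3 TRAMP groups of 30 weeks lie below their partners without TRAMP in every line.

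The mutant lines were set against their controls to see whether loss or change of ELAC2 alters these miRNAs. None of the 32 values (4 miRNAs in 8 comparisons) passed with limma, with adjusted p from 0.162 to 1, and 4 had an unadjusted p under 0.05. Those 4 were the 4 miRNAs in KO vs WT at 10 weeks. miR-145a-5p stood higher there by 1.46 ± 0.58 (SE, adjusted p = 0.162), an interval of 1.21 to 6.23 in fold, and miR-143-3p by 1.20 ± 0.54 (SE, adjusted p = 0.201), an interval of 1.07 to 4.97. miR-143-5p stood at 1.35 ± 0.60 and miR-145a-3p at 0.85 ± 0.36 (SE, adjusted p = 0.199 and 0.175). Every KO library was above every WT library for the 4, as it was for 15.4% of all miRNAs. In the same comparison 5 of 6 tested skeletal muscle miRNAs were lower in KO, with a median of -3.60. With that list left out of the totals, miR-143-3p stood at 0.92 and miR-145a-5p at 1.17 (adjusted p = 0.339 and 0.244). With the 4 miRNAs themselves left out instead, miR-143-3p stood at 1.51 and miR-145a-5p at 1.77, and neither passed. The result turned on the WT libraries. Without library 28 all 4 passed, at 1.72 for miR-143-3p, 1.93 for miR-143-5p, 2.03 for miR-145a-5p and 1.14 for miR-145a-3p (adjusted p = 0.0384, 0.0369, 0.0240 and 0.0402). Without the 3 libraries rich in skeletal muscle miRNAs, of which 2 are WT, they came to 0.16, 0.20, 0.31 and 0.26. WT was then library 28 alone, assumed to vary like the other groups. It was the highest WT library for each of the 4, and the skeletal muscle list still took 9.73% of its reads.

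In the other comparisons the values lay between -0.29 and 1.05. The share of all miRNAs called was 3.89% for KO vs WT and 0.195% for A537T vs WT at 10 weeks, and 0% for both TRAMP comparisons of that age. At 30 weeks it was 0.584% for KO vs WT, 0% for A537T vs WT, 6.23% for KO-TRAMP vs WT-TRAMP and 0% for A537T-TRAMP vs WT-TRAMP. The KO and A537T comparisons of a background and age share their 3 controls. The TRAMP effect of a mutant line also did not differ from that of WT in any of 16 tests (adjusted p from 0.364 to 0.993), and of all miRNAs 0.389% (10 weeks) and 7.98% (30 weeks) were called in this test of KO, and 0% at either age in that of A537T.

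Age made no difference that passed. In the mean of the 3 lines, miR-143-3p stood at -0.17 ± 0.31 at 30 against 10 weeks without TRAMP and at 0.26 ± 0.31 with it (SE, adjusted p = 0.716 and 0.552), while miR-145a-5p stood at -0.33 ± 0.33 and -0.11 ± 0.33 (SE, adjusted p = 0.469 and 0.847). Of all miRNAs 33.5% and 27.4% were called in these comparisons. Within lines 0 of 24 values passed (adjusted p from 0.165 to 0.986), and 0 had an unadjusted p under 0.05. In WT, where the 4 values lay above 0, all 4 lay below 0 without the 3 libraries rich in skeletal muscle miRNAs, miR-143-3p at -0.68 and miR-145a-5p at -0.67. WT at 10 weeks was then library 28 alone, its highest for each of the 4. The share of all miRNAs called was 9.53% in WT, 14.8% in KO, 15.2% in A537T, 7.59% in WT-TRAMP, 22.2% in KO-TRAMP and 5.45% in A537T-TRAMP. In KO the 3 libraries of 30 weeks lay below those of 10 weeks for each of the 4 miRNAs, as they did for 41.8% of all miRNAs.

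Other cell types of the lobes were followed through miRNAs known to mark them, to set the values of miR-143 and miR-145a beside the rest of the tissue. The counts of these lists at 10 weeks stand beside 39.9% of all miRNAs called lower and 25.5% called higher. All 5 entries of the fibroblast list were lower with TRAMP, among them miR-199a-3p counted with miR-199b-3p (-0.71 ± 0.13, SE, adjusted p = 4.16e-05) and miR-199a-5p (-0.64 ± 0.12, SE, adjusted p = 7.51e-05). Both miRNAs of endothelium, miR-126a-3p and miR-126a-5p, were lower by -1.12 ± 0.16 and -1.13 ± 0.25 (SE, adjusted p = 1.34e-06 and 0.000302). Of the 7 epithelial miRNAs 5 were higher and 1 lower. miR-200b-3p rose by 0.49 ± 0.15, miR-200a-3p by 0.91 ± 0.12 and miR-200c-3p by 0.40 ± 0.13 (SE, adjusted p = 0.00647, 3.06e-07 and 0.00854), and miR-205-5p, known from basal cells, was lower by -0.72 ± 0.18 (SE, adjusted p = 0.00112). All 6 tested skeletal muscle miRNAs were lower, miR-1a-3p by -3.48 ± 0.45 and miR-133a-3p by -3.94 ± 0.40 (SE, adjusted p = 2.30e-07 and 4.72e-09), and the 7th, miR-208b-3p, was at 0 in some libraries and too low to test. Of the red cell list 2 of 3 were lower, and of the leukocyte list 2 of 5 were higher and 3 lower.

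At 30 weeks, when 16.3% of all miRNAs were called lower and 28.8% higher, fewer of the stromal miRNAs passed. None of the 5 fibroblast entries and neither endothelial miRNA passed, with medians of 0.15 and -0.25 beside 0.07 for all miRNAs, while the median of the 4 miRNAs of smooth muscle was -0.61. The TRAMP effect differed between the ages for 5 of 5 fibroblast entries and 1 of 2 endothelial ones, beside 37.2% of all miRNAs. Whether miR-143 and miR-145a differed in this from those lists was not tested. Of the epithelial list 2 were higher and 2 lower, with miR-200c-3p (-0.56 ± 0.13, SE, adjusted p = 0.000824) and miR-205-5p (-1.54 ± 0.18, SE, adjusted p = 4.79e-08) the lower ones, and of the leukocyte list 3 of 5 were higher. miR-142a-5p and miR-142a-3p, products of a hairpin of white blood cells, rose by 1.51 ± 0.18 and 2.38 ± 0.20 (SE, adjusted p = 6.19e-08 and 1.38e-10), and the leukocyte list took 0.0731% to 0.170% of reads in the TRAMP libraries of 30 weeks against 0.0234% to 0.0634% in the others of that age. Of the skeletal muscle list 2 were lower and 1 higher, and of the red cell list 1 was lower and 1 higher. The part of these cells in the values of miR-143 and miR-145a was not tested.

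**Figure D4:**
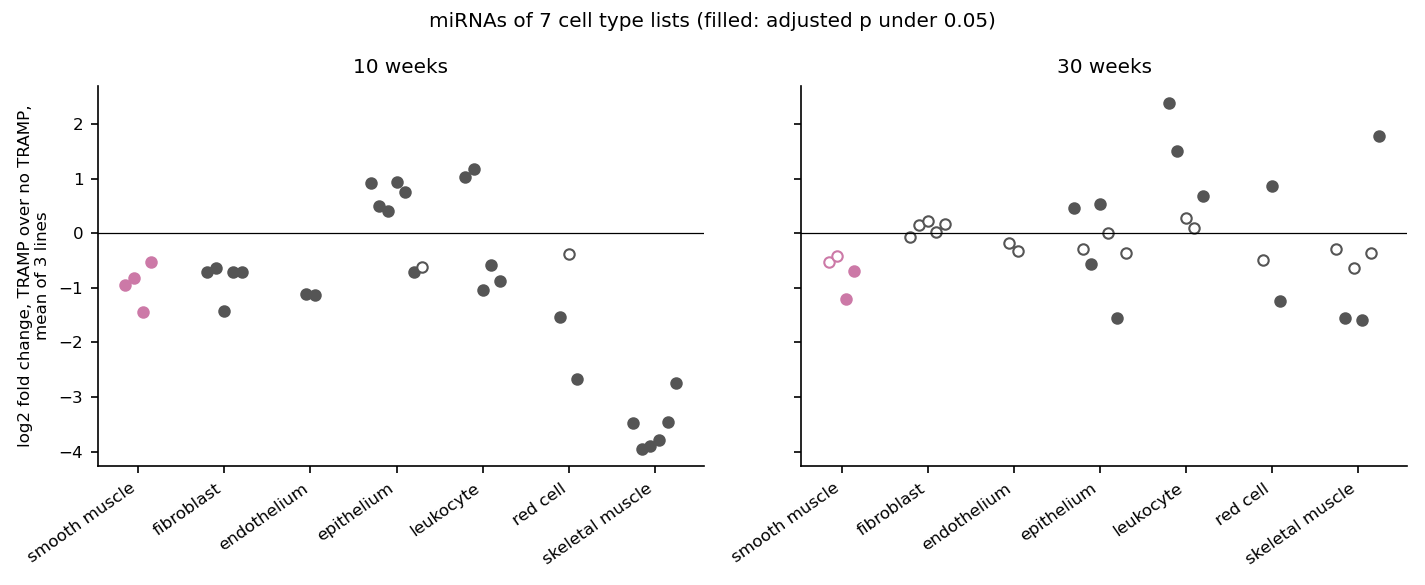
Log2 fold change of TRAMP over no TRAMP, as the mean of the 3 lines, for the miRNAs of 7 cell type lists at 10 weeks (left) and 30 weeks (right). Each point is 1 miRNA and filled points passed an adjusted p of 0.05; pink marks the 4 miRNAs of smooth muscle, all filled at 10 weeks, with both products of miR-145a filled at 30 weeks when none of the fibroblast and endothelial points is.

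Other miRNAs known to act in smooth muscle cells moved in both directions, as the counts show. Of 8, 3 were higher and 4 lower with TRAMP at 10 weeks, and 1 was higher and 3 lower at 30 weeks, with medians of -0.33 and -0.23. Of all miRNAs 25.5% were higher and 39.9% lower at 10 weeks, and 28.8% and 16.3% at 30 weeks. miR-21a-5p, which is raised in growing smooth muscle and in many tumours, rose by 0.93 ± 0.17 and 0.60 ± 0.17 (SE, adjusted p = 3.66e-05 and 0.00501). miR-26a-5p, which acts in smooth muscle differentiation, rose by 0.48 ± 0.09 at 10 weeks (SE, adjusted p = 4.34e-05) and stood at 0.04 ± 0.09 at 30 weeks (SE, adjusted p = 0.731). miR-24-3p fell by 0.40 ± 0.11 at 10 weeks (SE, adjusted p = 0.00328) and stood at -0.15 ± 0.11 at 30 weeks (SE, adjusted p = 0.266). The paired miRNAs miR-221-3p and miR-222-3p, which promote growth of smooth muscle cells, had the largest falls of this list after miR-133a-3p at 30 weeks, by 1.03 ± 0.13 and 1.05 ± 0.11 (SE, adjusted p = 1.36e-07 and 5.88e-09), and at 10 weeks they stood at -0.27 ± 0.13 and -0.44 ± 0.11 (SE, adjusted p = 0.0613 and 0.00109). Another pair, miR-1a-3p and miR-133a-3p, also belong to the skeletal muscle list, and at 30 weeks they stood at -0.30 ± 0.45 and -1.56 ± 0.40 (SE, adjusted p = 0.614 and 0.00238).

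The 4 miRNAs followed each other from library to library. Over the 36 libraries, on log2(RPM + 1), Pearson's r with miR-143-3p was 0.96 for miR-143-5p, 0.93 for miR-145a-3p and 0.92 for miR-145a-5p (Spearman's rho 0.97, 0.90 and 0.90). These were the 3 miRNAs most like miR-143-3p of the 162 with a mean of at least 100 RPM. With the group means taken out, r was 0.97, 0.97 and 0.95, so the likeness held between libraries of the same group. Without the pair of libraries farthest from the median it was 0.95, 0.91 and 0.90. The points share library, depth and scaling, and r is given as a description.

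**Figure D5:**
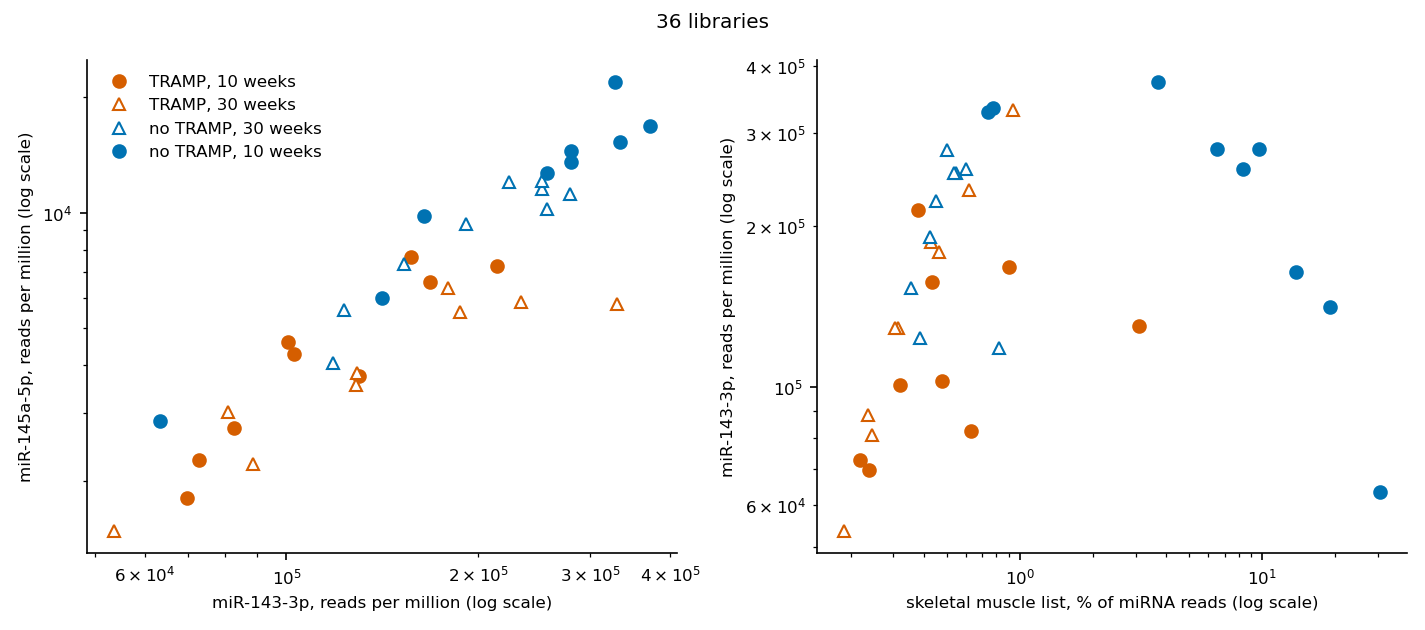
Left, miR-145a-5p against miR-143-3p, and right, miR-143-3p against the percent of miRNA reads from the skeletal muscle list, in the 36 libraries (log axes; blue, no TRAMP; orange, TRAMP; circles, 10 weeks; triangles, 30 weeks). miR-145a-5p tracks miR-143-3p, with library 17, at 330631 and 5773 RPM, having the lowest ratio, and the libraries of 10 weeks without TRAMP that exceed 10% skeletal muscle reads hold 63374 to 164447 RPM of miR-143-3p.

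Outside the pair of hairpins, the likest miRNAs were products of other loci. For miR-143-3p they were miR-10b-5p (r = 0.83, rho = 0.85), miR-139-5p (0.80, 0.80), miR-125b-2-3p (0.76, 0.72), miR-126a-5p (0.74, 0.77) and miR-100-5p (0.74, 0.74). For miR-145a-5p they were miR-125b-2-3p (r = 0.86, rho = 0.85), miR-205-5p (0.81, 0.72), miR-486a-5p counted with miR-486b-5p (0.78, 0.74), miR-451a (0.78, 0.76) and miR-23a-3p (0.77, 0.78). With the group means taken out, r was 0.87 for miR-10b-5p with miR-143-3p and 0.77 for miR-125b-2-3p with miR-145a-5p. With TRAMP miR-10b-5p was lower by -1.61 ± 0.53 at 10 weeks (SE, adjusted p = 0.00974) and stood at 0.02 ± 0.53 at 30 weeks (SE, adjusted p = 0.981). miR-125b-2-3p was lower by -0.39 ± 0.13 at 10 weeks and stood at -0.27 ± 0.13 at 30 weeks (SE, adjusted p = 0.00886 and 0.0840). At 30 weeks miR-486a-5p counted with miR-486b-5p was lower by -1.24 ± 0.41 (SE, adjusted p = 0.0164). miR-205-5p was lower by -1.54 ± 0.18 (SE, adjusted p = 4.79e-08). The rest of these miRNAs did not pass at that age. No mature sequence was at hand for miR-126a-5p or for miR-486a-5p counted with miR-486b-5p, and miR-451a and miR-23a-3p are left out. The mature sequences of the other 5 in RefSeq (GRCm38.p6) are shown because the seed sets which targets a miRNA can pair with. They have their seed, bases 2 to 8, in capitals.
miR-10b-5p, at chr2:74726074-74726096, plus strand: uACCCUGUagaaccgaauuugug
miR-100-5p, at chr9:41531437-41531458, plus strand: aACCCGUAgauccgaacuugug
miR-139-5p, at chr7:101475382-101475403, plus strand: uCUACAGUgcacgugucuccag
miR-125b-2-3p, at chr16:77646318-77646339, plus strand: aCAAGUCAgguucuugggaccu
miR-205-5p, at chr1:193507503-193507524, minus strand: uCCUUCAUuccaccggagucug
No 2 of these 5 have the same seed.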

How the data were processed

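Small RNA libraries of mouse prostate were made with a TruSeq small RNA kit and sequenced on a NovaSeq. Per the study's methods, the authors merged and trimmed read pairs in BBMerge, counted miRNAs with mirDeep2 0.1.3 against GRCm38 and miRBase 22.1, summed miRNAs of identical sequence and scaled each table of 6 libraries with DESeq2. The 8 deposited tables hold the signal, reads divided by a size factor, and are not raw counts. Another 8 deposited tables hold the authors' own comparisons (fold changes and their error rates) and were not used. Columns matching no group numbered 0. A column found in both the KO and the mutant table of a background and age was taken as control, and "Mut" was read as A537T.

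Whole reads were recovered from the size of 1 read (100% of values whole within 1e-06) and divided by the total of the library, times 1000000, which makes the tables comparable. The shared controls gave the same values from both tables. limma 3.58.1 (R 4.3.3) was fitted with a variance trend to log2(RPM + 1) for miRNAs with a mean of at least 1 RPM, 12 group means and 36 libraries. Intervals are 95%. RPM of a miRNA that is itself a large share of reads moves with its own total, which was tried by leaving the 4 miRNAs out of the total. Ratios and permutation tests used numpy 2.4.6, and the adjustment of their p-values scipy 1.17.1. The alternatives tried included another pseudocount (10), other filters (none, or 10 RPM on average), TMM, median-of-ratios scaling, totals without the skeletal muscle list or without the 4 miRNAs, no trend, edgeR 4.0.16, DESeq2 1.42.0, only the groups compared, the authors' scaling (mean of at least 10), and leaving out each library. On simulated reads for TRAMP against none at 30 weeks, with 514 miRNAs, limma recovered 77% of 100 miRNAs changed 2-fold and 98% of 100 changed 4-fold.

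The 4 miRNAs, the lists and the tests were chosen with earlier results of these data known. Named miRNAs are the 4, the 5 of highest r with miR-143-3p and with miR-145a-5p among those with a mean of at least 100 RPM, and up to 4 of each list in order of level. miR-208b-3p, miR-221-3p and miR-222-3p lie outside this rule and were named after their values were seen. All columns carry the same run identifier, and no batch is given in the sources used here.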

Additional observations from a re-analysis of the deposited data

How the results depend on the processing

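No paired analysis was possible because the columns carry no replicate number, so no replicate block could be fitted. Of the 116 fold changes (4 miRNAs in 29 comparisons), 27 changed sign under at least 1 alternative other than leaving out a single library. None of the 27 was past the threshold in either direction, and 0 of them were in TRAMP against none. They lay in the comparisons of age, of mutant lines other than KO vs WT at 10 weeks, and of TRAMP effects between lines or ages, so no direction should be read from those. The change of the TRAMP effect of miR-145a-5p with age (0.23) came to -0.083 with median-of-ratios scaling and -0.044 with DESeq2, and the age difference of miR-143-3p without TRAMP (-0.17) came to 0.016 with median-of-ratios scaling. The number of calls of TRAMP within a line (4) came to 1 with no filter, where 1574 miRNAs were tested, and to 6 with DESeq2 and with only the groups compared. At 10 weeks in the mean of lines, miR-143-5p lost its call with no filter (adjusted p = 0.0844) and with median-of-ratios scaling (0.0643), and miR-145a-3p with no filter (0.0561), with median-of-ratios scaling (0.0973) and with DESeq2 (0.129).

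With single libraries left out, KO vs WT at 10 weeks ran from 0.65 to 1.72 for miR-143-3p and from 0.90 to 2.03 for miR-145a-5p, with 0 to 4 of the 4 miRNAs called. The age difference ran from -0.35 to 0.0085 for miR-143-3p without TRAMP and from -0.28 to 0.11 for miR-145a-5p with TRAMP. The TRAMP effect on miR-143-3p ran from -1.07 to 0.0027 in WT at 10 weeks and from -0.86 to 0.45 in KO at 30 weeks, and 0 to 5 calls were made within lines. The TRAMP difference in the log2 ratio of miR-143-3p to miR-143-5p at 30 weeks ran from -0.16 to -0.059, with an unadjusted exact permutation p of 0.045 without library 15. The age difference in the log2 ratio of miR-145a-5p to miR-145a-3p with TRAMP ran from -0.14 to 0.049. The cause of these changes was not tested.

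Leaving out libraries 29, 30 and 34 was chosen after seeing the data. With 3 libraries a group, a test that did not pass does not show that levels were alike.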
